A study of Mus musculus with 8 samples.

Results

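Peroxisomes are small organelles in which hepatocytes shorten very long-chain and branched fatty acids, trim bile acid precursors, begin ether lipid synthesis and oxidise urate and glycolate, with catalase removing the hydrogen peroxide that results. Peroxins, the products of the Pex genes, build the organelle: some place proteins in its membrane, some carry folded enzymes across that membrane and recycle the carriers, and the Pex11 proteins elongate and multiply it. In rodent liver many genes of peroxisomal fatty acid oxidation are textbook targets of PPARα, a nuclear receptor activated by fatty acids. The values below are those of 43 peroxisomal genes, chosen by symbol from a fixed list and found through their Ensembl gene identifiers among the 56748 identifiers of a count table. They were divided into 13 biogenesis genes, 25 genes of matrix and lipid-synthesis enzymes and 5 membrane transporters or channel-like proteins. The selection rule uses symbols only, although the list was proposed with earlier results of these data known. All 43 had enough reads to be tested.

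The libraries came from mouse liver RNA of animals on a high fat-high fructose diet, all labelled MASLD (metabolic dysfunction-associated steatotic liver disease) and 16 weeks. Knockout of miR-93, a microRNA, was set against wild type, with 4 libraries of each genotype, and the design text names this comparison as the purpose. The labels give no age, sex, strain or deletion strategy, do not say whether 16 weeks is an age or a time on the diet, and name no mice on another diet, so every comparison is between genotypes on that diet. They do not say that the libraries are from separate animals, so p-values measure the spread between libraries only.

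Total counts ran from 9187279 to 10966019 in the knockout libraries and from 5085860 to 7451026 in the wild-type libraries. Mitochondrially encoded transcripts took 8.08 to 15.03% of the counts in the knockout and 25.4 to 77.8% in the wild type. Wild-type replicate 4 held the 77.8% and had 1131446 counts on nuclear genes, against at least 4581983 in each of the other 7 libraries. The 43 genes together took 1.69 to 1.82% of the nuclear counts in the knockout libraries, 1.74 to 1.78% in wild-type replicates 1 to 3 and 1.10% in wild-type replicate 4. That library was the lowest of all 8 for 31 of the 43 genes and the highest for 3, so counts and values are also given without it. Hepatocyte markers summed to 47760 to 54920 CPM (reads per 1000000 after TMM scaling) in the knockout and 54840 to 70120 CPM in the wild type, with 2 of 10 higher and 3 lower. Kupffer cell markers were higher for 6 of 10 (summed 162 to 195 CPM against 47.6 to 212 CPM), sinusoidal endothelial markers for 5 of 8 (138 to 260.1 CPM against 90.4 to 188 CPM), and B cell markers were lower for 6 of 7 (11.7 to 75.1 CPM against 58.5 to 503 CPM). Of the stellate cell markers, 3 of 7 were lower (111 to 128 CPM against 102 to 206 CPM), as were 3 of the 4 tested among 8 T and NK cell markers (5.04 to 7.08 CPM against 8.93 to 18.1 CPM), while 1 of the 2 tested among 5 cholangiocyte markers was higher (31.4 to 33.0 CPM against 10.1 to 20.3 CPM). Neither of the 2 tested among 6 neutrophil markers was called (7.002 to 9.04 CPM against 5.46 to 15.2 CPM, with Ly6g and Mpo at 0), and 3 markers of other peroxisome-rich tissues summed to at most 0.292 CPM. Wild-type replicate 4 held the highest wild-type sum for Kupffer cell, sinusoidal endothelial, stellate cell and neutrophil markers. It held the lowest for hepatocyte and cholangiocyte markers. Among all genes tested, 10.4% were called higher and 10.7% lower. The part of cell makeup in the results below was not tested. Of the 20 calls below, 20 were also made after the mitochondrial genes were left out, and 10 after all libraries were thinned to 1131446 nuclear counts.

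Of the 43 genes, 19 were higher in the knockout, 1 was lower and 23 were not called at an adjusted p below 0.05 (edgeR's quasi-likelihood test, Benjamini-Hochberg over all 13204 genes tested). Among all genes tested, 21.0% were called in either direction, 10.4% as higher and 10.7% as lower, so the 44.2% of these genes called higher was above the background share. Their median log2 fold change, knockout over wild type, was 0.38 (-0.01 over all genes tested), and 33 of 43 estimates were above 0. The 4 knockout values lay outside the range of the 4 wild-type values for 23 of 43 genes, 21 above and 2 below, against 30.3% of all genes tested. Without wild-type replicate 4, 23 genes were higher and 4 lower with a median of 0.30, where 17.8% of all genes were called higher and 17.5% lower. Scaled by library size alone, with no TMM factors, the median of all genes moved to 0.54, higher calls made up 81.9% of all calls in place of 49.3%, and the members gave 6 higher and 0 lower. In bulk liver RNA, a change in the share of peroxisome-rich cells and a change in RNA per cell cannot be told apart.

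**Figure D1:**
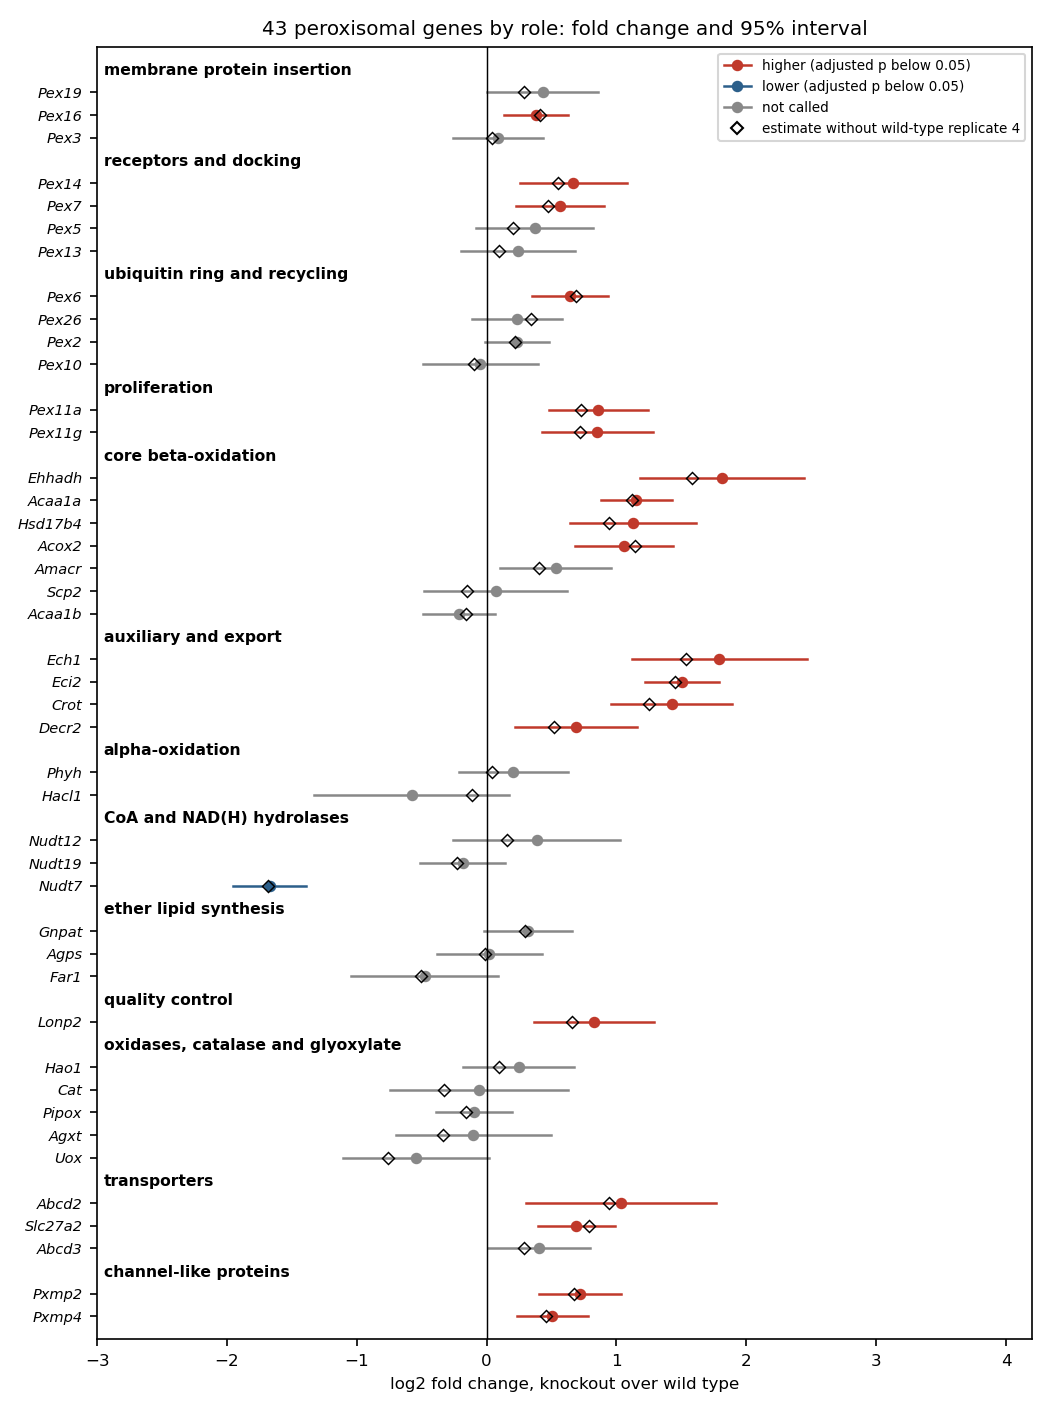
Log2 fold change, knockout over wild type, of each of the 43 genes with its 95% interval, grouped by role. Red marks genes higher at an adjusted p below 0.05, blue the 1 lower gene, grey those not called, and open diamonds the estimate without wild-type replicate 4; the fatty acid oxidation genes reach 1.82 and Nudt7 stands alone at -1.67.

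The deleted microRNA pairs with its targets mainly through its seed, bases 2 to 8, which other members of its family share. The RefSeq sequences (GRCm38.p6) of miR-93-5p (chr5:138165574-138165596, minus strand), its genomic neighbour miR-106b-5p and 2 relatives of another cluster are shown because they carry the same seed, in capitals.
miR-93-5p: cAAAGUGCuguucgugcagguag
miR-106b-5p: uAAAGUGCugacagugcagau
miR-17-5p: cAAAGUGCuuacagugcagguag
miR-20a-5p: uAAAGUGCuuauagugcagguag
The complement of that seed, GCACTTT, was looked for on the sense strand in 1 3′ UTR a gene, the longest annotated (GENCODE M21, GRCm38). It was present in 8 of the 43 genes (18.6%) and in 2474 of 21037 genes with a UTR (11.8%), with median UTR lengths of 812 and 960 bases. The 8 matches are shown with their flanks and GCACTTT in capitals.
Pex7: atgcctatacttttaGCACTTTa
Pex26: cacttaggactcttgGCACTTTt
Acaa1a: gaggggtgtgtcacaGCACTTTa
Acaa1b: gaggggtgtgtcacaGCACTTTa
Crot: gagtctatttctcaaGCACTTTa
Hacl1: ggtcagaagctcctgGCACTTTg
Far1: tgagttgttcacacaGCACTTTa
Abcd2: ttatgtatttaggcaGCACTTTa
Of these 8 genes, Pex7, Acaa1a, Crot and Abcd2 were higher in the knockout and none was lower, and their median log2 fold change was 0.40. Among the 35 genes with no match, 15 were higher and 1 lower, with a median of 0.38. Acaa1a and Acaa1b carry the same 23 letters, and the first had a log2 fold change of 1.15 and the second of -0.21. The 4 genes with the largest log2 fold changes in either direction, Ehhadh, Ech1, Nudt7 and Eci2, had no match in these UTRs. A match is a description of the sequence and not a shown site.

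Biogenesis genes moved in 1 direction where they were called. Of 13, 6 were higher and none was lower, with a median log2 fold change of 0.38, and 12 of 13 estimates were above 0. Over all genes tested, 10.4% were higher and 10.7% lower. Without wild-type replicate 4, 8 were higher and none lower, with a median of 0.35, where 17.8% of all genes were called higher and 17.5% lower. Their summed level was 635, 677, 651 and 672 CPM in knockout replicates 1 to 4 and 482, 503, 489.9 and 364 CPM in wild-type replicates 1 to 4, the order in which library values are given throughout. The groups did not overlap, and the lowest sum was that of wild-type replicate 4.

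The 2 proliferation genes had the largest changes among the peroxins. Pex11a, which elongates the peroxisomal membrane, stood at 99.3, 101, 103 and 94.4 CPM in the knockout and at 58.6, 63.2, 59.6 and 34.3 CPM in the wild type, a log2 fold change of 0.86 ± 0.17 (SE), adjusted p = 0.00578. Every knockout value was above every wild-type value. Pex11g, a relative of Pex11a in peroxisome division, had 41.3, 43.7, 40.1 and 46.6 CPM against 26.4, 23.2, 29.3 and 12.4 CPM (0.85 ± 0.19 (SE), adjusted p = 0.0108). The groups were again apart, and wild-type replicate 4 was the lowest library for both genes. Without it the estimates were 0.73 for Pex11a and 0.72 for Pex11g, and both remained called.

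Among the 4 genes of receptor recycling and the ubiquitin ring, 1 was higher. Pex6, an ATPase that pulls used receptors out of the membrane, had 102, 87.1, 105 and 99.9 CPM against 56.3, 68.6, 59.8 and 69.2 CPM (0.64 ± 0.13 (SE), adjusted p = 0.00631). Wild-type replicate 4 was the highest wild-type library here and all 4 knockout libraries were above it. Pex2, a ring-finger subunit of the ubiquitin ligase, had 35.3, 35.4, 38.6 and 35.4 CPM against 31.2, 31.2, 31.6 and 28.7 CPM, with an estimate of 0.23 ± 0.11 that did not pass the test (adjusted p = 0.165), although its groups did not overlap. Pex10, another ring-finger subunit, was estimated at -0.05 with a 95% interval of -0.49 to 0.40, and Pex26, the membrane anchor of the recycling ATPase, at 0.23 (-0.12 to 0.58).

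Import receptors and docking proteins gave 2 calls of 4. Pex14, the docking protein on which loaded receptors land, had 29.8, 39.2, 33.02 and 34.7 CPM against 25.3, 25.2, 19.9 and 12.4 CPM (0.67 ± 0.19 (SE), adjusted p = 0.0275). The lowest knockout value was above the highest wild-type value, and the call did not survive leaving out wild-type replicate 3 or 1 of knockout replicates 2 to 4 (adjusted p = 0.0628 to 0.0906). Pex7, the receptor for enzymes with the second type of targeting signal, had 40.4, 44.1, 36.96 and 46.8 CPM against 29.8, 30.6, 30.9 and 19.7 CPM (0.57 ± 0.15 (SE), adjusted p = 0.0244). Its groups did not overlap either, and its call did not survive leaving out wild-type replicate 2 or 1 of knockout replicates 2 and 4 (adjusted p = 0.0520 to 0.0834). Pex5, the main import receptor, was estimated at 0.37 (-0.08 to 0.82, adjusted p = 0.223) and Pex13, the other docking protein, at 0.24 (-0.20 to 0.68, adjusted p = 0.416).

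For membrane protein insertion, 1 of 3 genes was called. Pex16, which recruits membrane proteins during early assembly, had 69.7, 69.8, 68.2 and 69.9 CPM against 53.05, 50.9, 53.9 and 56.2 CPM (0.38 ± 0.11 (SE), adjusted p = 0.0335). The knockout values were close together and all above the wild type, but the call held only without wild-type replicate 4 and was lost with each of the other 7 libraries left out in turn (adjusted p = 0.0583 to 0.0930). Pex19, the chaperone that brings membrane proteins to the organelle, had 56.01, 72.4, 57.8 and 66.4 CPM against 51.9, 49.5, 55.1 and 26.99 CPM (0.43 ± 0.19 (SE), adjusted p = 0.137). The groups did not overlap, and wild-type replicate 4 was far below the rest. Pex3, the docking factor for Pex19, was estimated at 0.09 (-0.26 to 0.43).

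**Figure D2:**
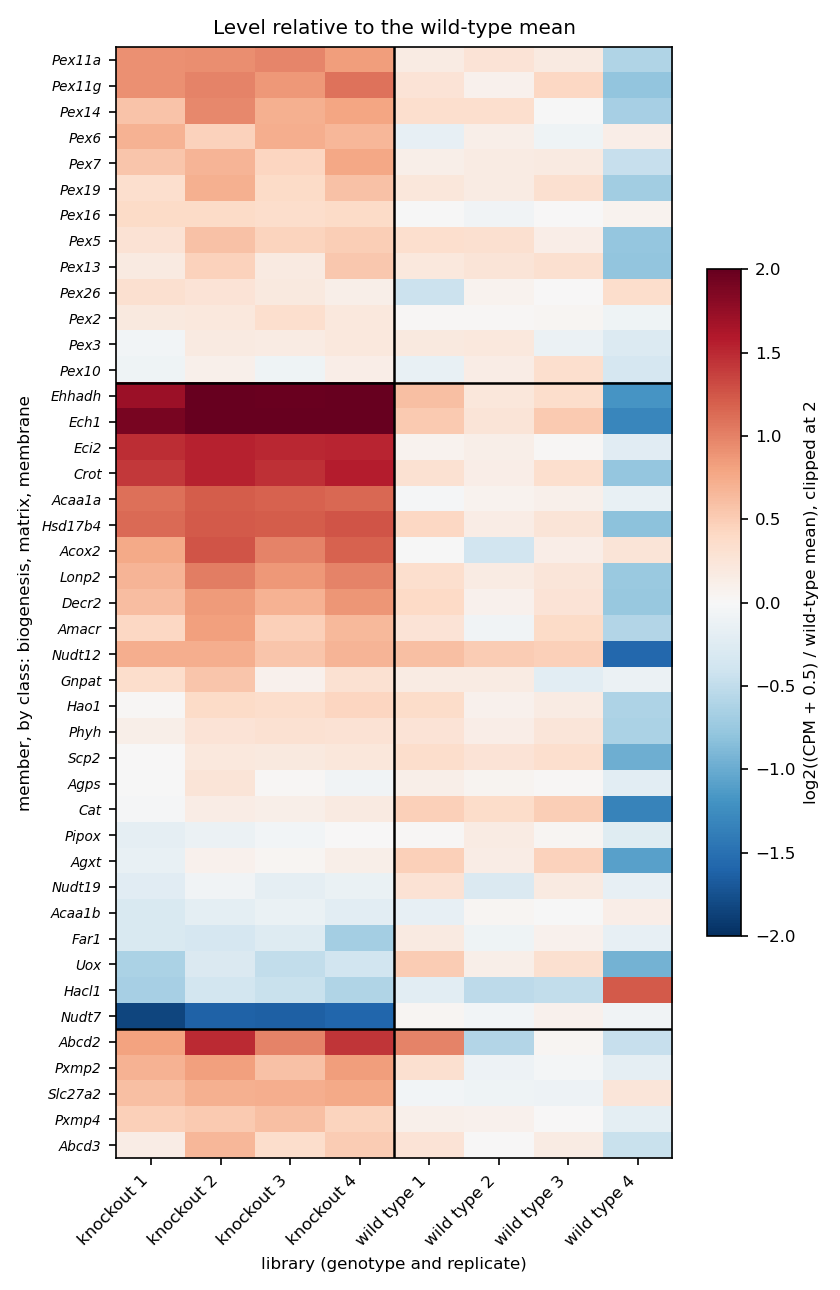
Each row is 1 of the 43 genes and each column 1 library; colour is the log2 ratio of CPM + 0.5 to the mean of the 4 wild-type libraries, clipped at 2, with black lines between biogenesis, matrix and membrane genes. Red fills the knockout columns of the membrane rows, the upper matrix rows and most biogenesis rows (Pex3 and Pex10 are mixed), and the wild-type replicate 4 column is blue in most rows.

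Calls among matrix and lipid-synthesis enzymes lay mainly in beta-oxidation. Of 25, 9 were higher and 1 was lower, with a median log2 fold change of 0.25, and without wild-type replicate 4 the counts were 10 and 4 and the median 0.10. With all 8 libraries, 10.4% of all genes tested were higher and 10.7% lower. Without wild-type replicate 4 these shares were 17.8% and 17.5%, so the share of lower matrix calls in that setting was near the background. The 9 higher genes were 4 of 7 in core beta-oxidation, 4 of 4 in its auxiliary and export steps and the protease gene Lonp2. None of the 2 alpha-oxidation genes, 3 ether lipid genes or 5 genes of oxidases, catalase and glyoxylate metabolism passed the test. Whether these roles differed from each other was not tested. The summed level of the class was 9181, 10507, 10259 and 10508 CPM in the knockout and 10905, 9962, 10697 and 5503 CPM in the wild type. The groups overlapped in the sum, and wild-type replicates 1 to 3 lay near the knockout libraries. Abundant genes that were not called weigh most in this sum. In knockout replicate 3, Scp2, Phyh, Cat, Acaa1b and Uox had 2525, 1538, 1368, 917 and 881 CPM of the 10259, and Ehhadh had 239 CPM.

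Peroxisomal beta-oxidation runs through an acyl-CoA oxidase, a bifunctional hydratase and dehydrogenase, and a thiolase. Ehhadh, the L-bifunctional enzyme, had 199, 265, 239 and 252 CPM against 92.1, 70.6, 77.1 and 26.4 CPM (1.82 ± 0.29 (SE), adjusted p = 0.00147). The lowest knockout value was well above the highest wild-type value. Acaa1a, a thiolase of the last step, had 306, 329, 322 and 316 CPM against 140.5, 150.1, 152 and 128 CPM (1.15 ± 0.12 (SE), adjusted p = 1.07e-04). Both groups were tight, and wild-type replicate 4 was close to the other wild-type libraries. Hsd17b4, the D-bifunctional enzyme used for branched chains and bile acid precursors, was higher by 1.13 ± 0.22 (adjusted p = 0.00483), with 257 to 279 CPM against 65.8 to 155 CPM. Acox2, the oxidase of branched chains and bile acid intermediates, was higher by 1.06 ± 0.17 (adjusted p = 0.00173), with 96.5 to 136 CPM against 43.4 to 68.04 CPM.

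The other 3 core genes were not called. Acaa1b, the second thiolase of mouse liver, had 809, 871, 917 and 868 CPM against 898, 1025, 1001 and 1093 CPM (-0.21 ± 0.13, adjusted p = 0.256). Most wild-type values lay above the knockout values, and the ranges overlapped. Scp2, which encodes sterol carrier protein and a thiolase for branched chains, had 2209, 2539, 2525 and 2583 CPM against 2821, 2669.6, 2782 and 1122 CPM (0.07 ± 0.25, adjusted p = 0.877). Wild-type replicates 1 to 3 were above every knockout library and replicate 4 was below them all, and the estimate without replicate 4 was -0.15. Amacr, a racemase that prepares branched acyl-CoAs, was estimated at 0.53 ± 0.19 (adjusted p = 0.0746).

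The ratio of the 2 thiolase genes within a library differed between the genotypes, a comparison that needs no scaling between libraries. The log2 ratio of Acaa1a to Acaa1b counts was -1.40, -1.41, -1.51 and -1.46 in the knockout and -2.68, -2.77, -2.72 and -3.09 in the wild type (means -1.44 ± 0.05 and -2.81 ± 0.19, SD, n = 4 each). All knockout ratios were above all wild-type ratios. This pair, like the pairs of the ratios below, sets a called gene over 1 that was not called. The gap between the genotypes is therefore not separate support. The 2 transcripts are near copies, identical at 92.9% of 1637 aligned bases, and 34% of 50-base stretches of the Acaa1a transcript also occur in Acaa1b. The sources used here do not say where reads that match both went, so the split between them is uncertain. Their RefSeq promoter windows (GRCm38.p6, 250 bases before to 50 after the annotated start) are printed because these near-identical genes had different outcomes. Capitals mark the CCAAT motif, on either strand (CCAAT or ATTGG), counted with overlaps. The Acaa1a window at chr9:119341044-119341343 (plus strand) and the Acaa1b window at chr9:119157044-119157343 (minus strand) hold 4 each, and in Acaa1b the last CCAAT and ATTGG overlap.
Acaa1a: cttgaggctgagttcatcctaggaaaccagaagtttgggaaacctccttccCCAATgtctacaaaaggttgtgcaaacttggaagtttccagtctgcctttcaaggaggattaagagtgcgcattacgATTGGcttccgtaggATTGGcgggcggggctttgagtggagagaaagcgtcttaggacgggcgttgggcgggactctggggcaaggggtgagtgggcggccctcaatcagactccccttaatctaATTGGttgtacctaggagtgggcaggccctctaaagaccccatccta
Acaa1b: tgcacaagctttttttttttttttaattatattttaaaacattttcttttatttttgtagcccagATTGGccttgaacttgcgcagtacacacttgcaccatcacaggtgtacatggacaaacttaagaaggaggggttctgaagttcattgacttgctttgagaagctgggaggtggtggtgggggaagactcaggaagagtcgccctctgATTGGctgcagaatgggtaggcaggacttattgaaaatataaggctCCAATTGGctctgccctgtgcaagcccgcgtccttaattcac
CCAAT, searched on both strands, was in 15 of the 43 windows that RefSeq gives for 36 of the genes (34.9%), against 37.4% of 32851 windows of all genes. AGGNCANAGGNCA, a spelling of the direct repeat bound by PPARα with its partner RXR, was searched on both strands too and was in 0 of the 43 windows and in 0.381% of all windows. No match says only that these letters are not in this window.

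All 4 auxiliary and export genes rose. Their products move or reduce double bonds so that unsaturated chains can enter the spiral, or hand shortened chains to carnitine. Eci2, an enoyl-CoA isomerase, had 251, 264, 257 and 259 CPM against 94.98, 97.9, 91.6 and 77.04 CPM (1.51 ± 0.13 (SE), adjusted p = 2.17e-05). Both groups were narrow and far apart. Ech1, a dienoyl-CoA isomerase, had 389, 413, 413 and 413 CPM against 150.1, 124, 149 and 41.6 CPM (1.79 ± 0.31 (SE), adjusted p = 0.00238). Knockout replicate 1 was a little below the other knockout libraries, and wild-type replicate 4 was far below the other wild-type libraries. Crot, the carnitine acyltransferase that exports shortened chains, had 239, 262, 249 and 268 CPM against 111, 98.5, 114 and 52.3 CPM (1.42 ± 0.21 (SE), adjusted p = 9.73e-04). No wild-type library came near the knockout range. Decr2, a dienoyl-CoA reductase, was higher by 0.69 ± 0.21 (adjusted p = 0.0408), a call lost without any 1 knockout library and without wild-type replicate 2 or 3 (adjusted p = 0.0602 to 0.113). Without wild-type replicate 4 the estimates of Ehhadh, Ech1 and Crot were 1.58, 1.54 and 1.25, and those of Eci2 and Acaa1a 1.45 and 1.12.

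With all 8 libraries, Nudt7 was the 1 gene of the 43 called lower. It encodes a hydrolase that splits coenzyme A and its esters inside the peroxisome, and it had 80.2, 93.99, 92.1 and 95.9 CPM in the knockout and 296, 278, 304 and 274 CPM in the wild type (-1.67 ± 0.13 (SE), adjusted p = 8.47e-06). The groups were far apart with little spread in either, and wild-type replicate 4 did not stand apart. Nudt19, a second coenzyme A hydrolase, was estimated at -0.19 ± 0.15 (adjusted p = 0.403), with ranges of 31.3 to 35.1 CPM and 29.96 to 44.8 CPM that overlapped. The log2 ratio of Nudt7 to Nudt19 counts within a library was 1.36 to 1.52 in the knockout and 2.72 to 3.21 in the wild type. Nudt12, which hydrolyses reduced nicotinamide nucleotides, had 43.4, 43.4, 38.6 and 42.1 CPM against 39.7, 37.2, 36.4 and 8.43 CPM (0.38 ± 0.29 (SE), adjusted p = 0.373). Only wild-type replicate 4 was far from the other 7 libraries.

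**Figure D3:**
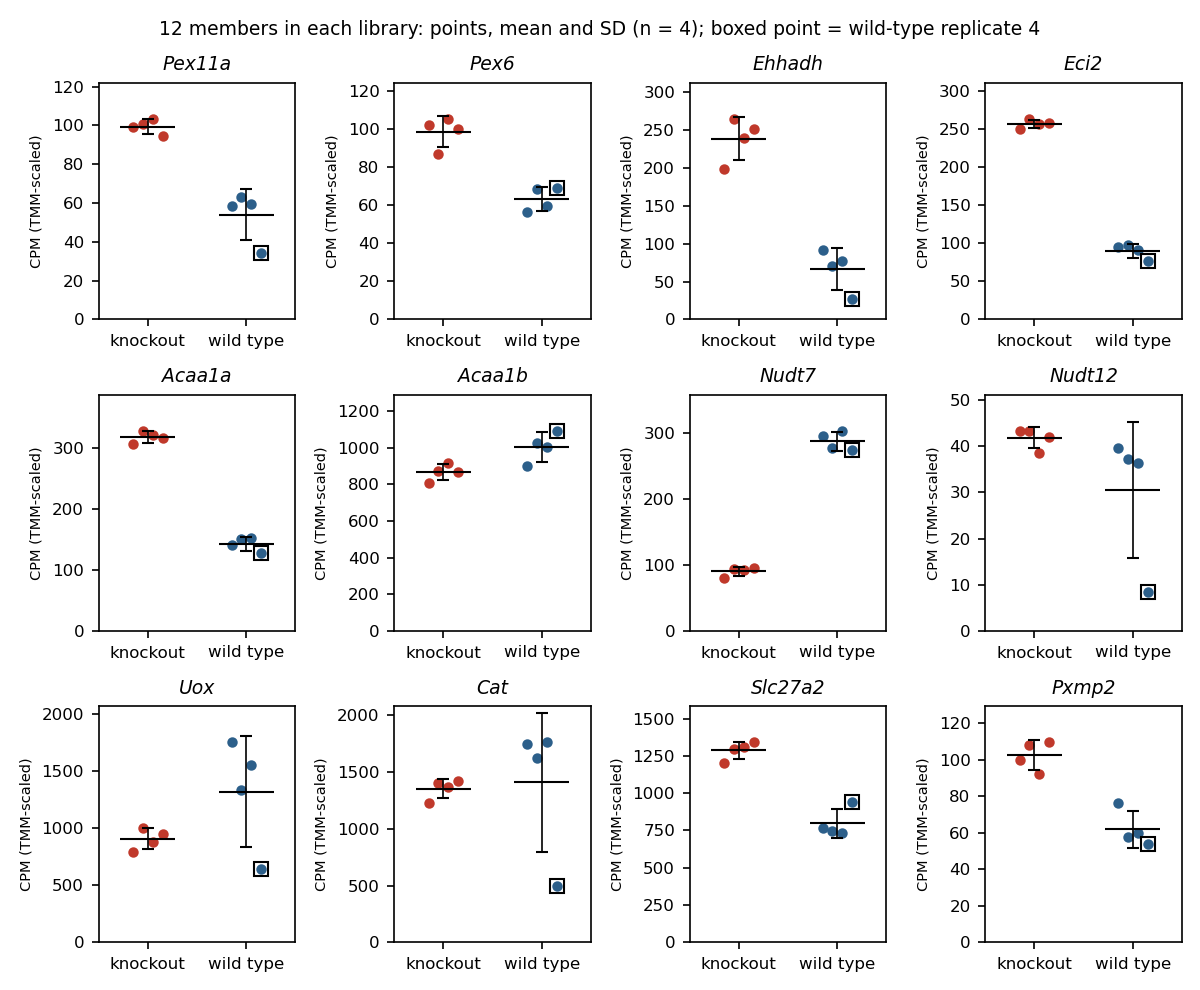
TMM-scaled CPM of 12 genes in each library; points are libraries, horizontal bars the mean and vertical bars the SD (n = 4), and the boxed point is wild-type replicate 4. Knockout and wild type are apart for Pex11a, Pex6, Ehhadh, Eci2, Acaa1a, Nudt7, Slc27a2 and Pxmp2, whereas Cat, Uox, Nudt12 and Acaa1b overlap.

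The remaining matrix roles held 1 call. Lonp2, a protease that degrades unneeded matrix proteins, had 156, 199, 178 and 194 CPM against 124, 109, 115 and 57.9 CPM (0.83 ± 0.21 (SE), adjusted p = 0.0179). All knockout values were above all wild-type values, and the call was lost without knockout replicate 2 or knockout replicate 4 (adjusted p = 0.0594 to 0.0610). Phyh, the phytanoyl-CoA hydroxylase that opens alpha-oxidation, had 1343, 1506, 1538 and 1523 CPM against 1503, 1356, 1468 and 799 CPM (0.20 ± 0.19 (SE), adjusted p = 0.478). Hacl1, the lyase of the same pathway, had 9.61, 11.9, 11.2 and 10.05 CPM against 13.3, 10.6, 10.9 and 37.1 CPM (-0.58 ± 0.34 (SE), adjusted p = 0.254). For both genes wild-type replicates 1 to 3 lay within or near the knockout range, and replicate 4 lay below it for Phyh and above it for Hacl1.

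Ether lipid synthesis begins with Gnpat, an acyltransferase, continues with Agps, which makes the ether bond, and draws its fatty alcohols from Far1, a fatty acyl-CoA reductase. Gnpat had 25.2, 29.2, 20.96 and 24.4 CPM against 22.1, 22.1, 16.8 and 17.99 CPM (0.32 ± 0.15 (SE), adjusted p = 0.161). Far1 was the scarcest of the 43 genes, with 3.01, 2.95, 3.14 and 2.21 CPM against 4.42, 3.57, 4.10 and 3.37 CPM (-0.48 ± 0.26 (SE), adjusted p = 0.211). The Far1 groups did not overlap, and its wild-type values rest on few reads, since 3 counts correspond to 1.69 CPM in wild-type replicate 4. Agps was estimated at 0.02 (-0.38 to 0.43).

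Oxidases, catalase and glyoxylate enzymes gave no call with all 8 libraries, and 3 of 5 were lower once wild-type replicate 4 was left out. Of all genes tested in that setting, 17.5% were called lower. Uox, urate oxidase, had 792, 1004, 881 and 948 CPM against 1751, 1335, 1546 and 639.9 CPM (-0.54 ± 0.26 (SE), adjusted p = 0.154). Wild-type replicates 1 to 3 were above every knockout library and replicate 4 was below them, and without it the estimate was -0.76 with an adjusted p of 1.66e-06. Cat, catalase, had 1232, 1399.6, 1368 and 1418 CPM against 1752, 1622, 1764 and 499 CPM (-0.06 ± 0.31 (SE), adjusted p = 0.920), and -0.33 with an adjusted p of 0.00342 without that library. Agxt, the aminotransferase that clears glyoxylate, moved from -0.10 (adjusted p = 0.827) to -0.33 (adjusted p = 0.0109). Hao1, glycolate oxidase, had 87.5, 112, 109.9 and 116 CPM against 112, 91.1, 96.9 and 55.7 CPM (0.25 ± 0.20 (SE), adjusted p = 0.396), and Pipox, an oxidase of pipecolate and sarcosine, was estimated at -0.10 ± 0.13 (adjusted p = 0.647). Their ranges overlapped. The log2 ratio of Ehhadh to Cat counts within a library was -2.63 to -2.40 in the knockout and -4.52 to -4.24 in the wild type. Wild-type replicate 4 had the highest wild-type ratio at -4.24, next to -4.25, -4.52 and -4.52 in wild-type replicates 1 to 3.

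Of the 5 membrane genes, 4 were higher and none was lower, with a median log2 fold change of 0.69. Over all genes tested, 10.4% were higher. Without wild-type replicate 4, 5 were higher with a median of 0.67, where 17.8% of all genes were called higher. Slc27a2, which activates very long-chain fatty acids and takes up fatty acids, had 1204, 1294, 1308 and 1343 CPM against 766, 745, 736 and 942 CPM (0.69 ± 0.13 (SE), adjusted p = 0.00473). Wild-type replicate 4 was the highest wild-type library and still below all knockout libraries. Abcd2, a transporter of very long-chain acyl-CoAs, had 10.2, 16.7, 11.6 and 15.8 CPM against 11.6, 3.57, 5.76 and 3.94 CPM (1.03 ± 0.33 (SE), adjusted p = 0.0484). Its ranges overlapped, wild-type replicate 4 rested on 7 counts, and the call was lost without any 1 knockout library and without wild-type replicate 2 or 3 (adjusted p = 0.0580 to 0.135). Abcd3, the most abundant ABC transporter of the peroxisomal membrane, was estimated at 0.40 ± 0.18 (adjusted p = 0.132).

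Both channel-like genes rose. Pxmp2, a pore protein for small solutes, had 99.7, 108, 92.4 and 109.7 CPM against 76.5, 57.4, 59.8 and 53.98 CPM (0.72 ± 0.14 (SE), adjusted p = 0.00561), and Pxmp4, a membrane protein of the same compartment, had 95.3, 98.3, 103 and 92.9 CPM against 72.9, 72.4, 68.7 and 59.04 CPM (0.51 ± 0.12 (SE), adjusted p = 0.0153). Neither pair of groups overlapped, and the Pxmp4 call was lost without knockout replicate 2 or knockout replicate 3 (adjusted p = 0.0504 to 0.0548). The 5 membrane genes summed to 1557, 1731, 1687 and 1753 CPM in the knockout and 1089, 1013, 1022 and 1158 CPM in the wild type. Slc27a2 made up most of this sum in every library, and in the sum all knockout libraries were above all wild-type libraries.

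**Figure D4:**
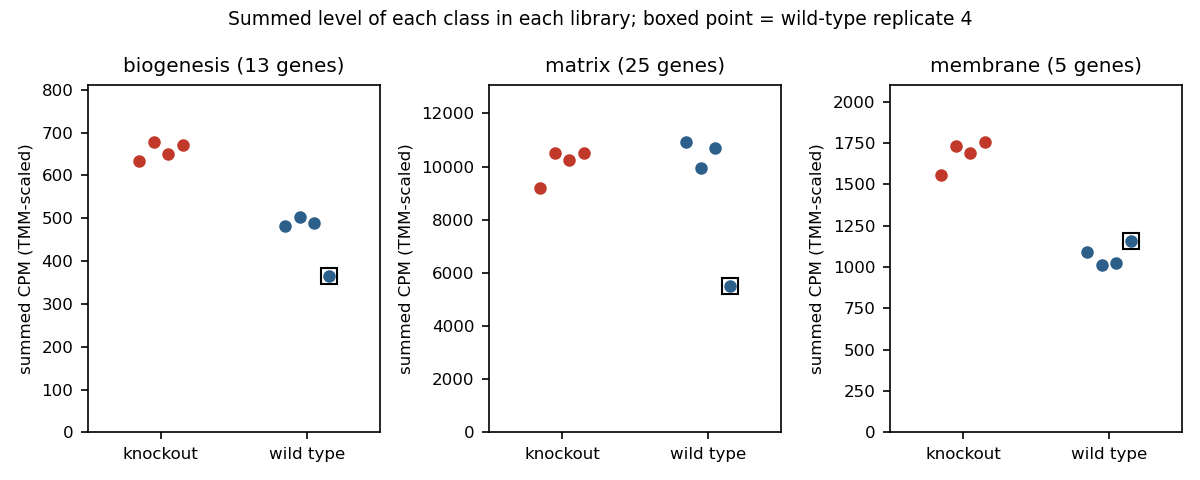
Summed TMM-scaled CPM of the 13 biogenesis, 25 matrix and 5 membrane genes in each library, with wild-type replicate 4 boxed. The biogenesis and membrane sums are higher in every knockout library than in any wild-type library, while the matrix sums overlap and wild-type replicate 4 lies lowest at 5503 CPM.

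Per length of annotated exon, the 4 most abundant of these genes were not called. The length joins the exons of all annotated transcripts of a gene, so ranks between genes depend on the annotation. It was 4414 bases for Acaa1a and 1962 for Acaa1b, whose compared transcripts have 1762 and 1689 bases. Phyh had a mean level of 781 CPM per kilobase in the knockout and 677 in the wild type, followed by Scp2 (708.5 and 675), Cat (518 and 539) and Acaa1b (442 and 512). These 4 held ranks 1 to 4 in both genotypes, with wild-type replicate 4 included in the wild-type means. In wild-type replicates 1 to 3 alone the means were 762 for Phyh, 793 for Scp2, 655.5 for Cat and 497 for Acaa1b, with Scp2 above Phyh. Several called genes changed rank: Ech1 stood 7th in the knockout and 11th in the wild type, Ehhadh 11th and 17th, and Eci2 17th and 25th. Nudt7 went the other way, 28th in the knockout (16.1 CPM per kilobase) and 10th in the wild type (51.3). These wild-type ranks include replicate 4, and in wild-type replicates 1 to 3 alone Ech1 (61.7) lay above Nudt7 (52.1). Exons of 17 of the 43 genes overlap another annotated gene, mostly on the opposite strand, and whether strand was used in counting is not given. Acaa1a, Acaa1b, Crot, Eci2 and Slc27a2 are among the 17.

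A list of 54 other peroxisome genes, written from general knowledge, gave 14 higher, 5 lower and 31 not called, with a median log2 fold change of 0.22 over the 50 that were tested. The shares were 28% higher and 10% lower, against 10.4% and 10.7% of all genes tested, so the share of lower calls was near the background. Without wild-type replicate 4 it gave 16 higher and 9 lower, where 17.8% and 17.5% of all genes were called. Of 12 tested genes in beta-oxidation and acyl-CoA handling 7 were higher, among them Acot3, an acyl-CoA thioesterase (1.48 ± 0.17 (SE), adjusted p = 1.39e-04), Dhrs4, a carbonyl reductase (1.16 ± 0.17 (SE), adjusted p = 9.09e-04), and Acot8, the main peroxisomal thioesterase (0.90 ± 0.16 (SE), adjusted p = 0.00267). Ephx2, an epoxide hydrolase, was higher too (0.71 ± 0.13 (SE), adjusted p = 0.00350).

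Ppara, which encodes the nuclear receptor named above, was higher, with 34.1, 34.7, 32.1 and 31.1 CPM against 16.7, 16.9, 13.2 and 15.2 CPM (1.08 ± 0.13 (SE), adjusted p = 2.44e-04). All its knockout values were above all its wild-type values. Rxra, its partner, was higher by 0.68 ± 0.13 (adjusted p = 0.00376). The 5 lower genes were Pmvk (-1.26 ± 0.18 (SE), adjusted p = 8.17e-04) and Mvk (-1.10 ± 0.28 (SE), adjusted p = 0.0168), both kinases of the mevalonate pathway, Paox, a polyamine oxidase (-0.999 ± 0.16 (SE), adjusted p = 0.00151), Mpv17l, a membrane protein (-0.75 ± 0.22 (SE), adjusted p = 0.0339), and Ppargc1b, a coactivator of nuclear receptors (-1.60 ± 0.48 (SE), adjusted p = 0.0371). Leaving out single libraries ended the calls of Mvk (adjusted p = 0.054 to 0.059 without knockout replicate 3 or 4), of Mpv17l (0.093 to 0.103, wild-type replicates 1 and 3 and knockout replicates 1, 3 and 4) and of Ppargc1b (0.051 to 0.101, wild-type replicates 2 and 3 and knockout replicates 2, 3 and 4). Wild-type replicate 4 was the highest wild-type library for Ppargc1b (14.1 CPM against 3.54 to 4.67 CPM in the others). The same held for Mvk (9.56 against 4.70 to 6.82 CPM) and Paox (55.7 against 33.7 to 42.3 CPM), but not for Pmvk or Mpv17l. For Ppargc1b, Mvk and Paox, every knockout value was below every wild-type value. Acot5, Acot6, Dao and Hao2 had too few reads to be tested.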

How the data were processed

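Liver RNA of 4 miR-93 knockout and 4 wild-type libraries was analysed from the raw counts per gene that the authors deposited, whole numbers on 56748 Ensembl identifiers. Per the submitters' processing notes, cutadapt 4.2 and STAR 2.7.10a were used with mm39. The counting tool, its strand setting and its treatment of reads with several matches are not given in the sources used here. Symbols came from GENCODE names, which matched 52073 identifiers.

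Genes were filtered with filterByExpr (13204 of 25937 detected genes stayed), scaled by TMM and tested with edgeR's quasi-likelihood test (edgeR 4.0.16, limma 3.58.1, R 4.3.3, robust, two-sided), and p-values were adjusted by Benjamini and Hochberg's method across the 13204 genes, with calls at 0.05. The steps were tested on simulated data. CPM are counts per 1000000 of the TMM-scaled library. Total counts of 5085860 to 10966019 set the precision, and 3 counts corresponded to 0.219 to 0.455 CPM, or 1.69 CPM in wild-type replicate 4. The chi-square check of replicates found no library deposited more than once.

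The members and lists were chosen with earlier results of these data known. Values per library are given for the 2 members with the smallest p in each of 13 roles, and for Acaa1b, Ech1, Cat and Scp2, which were chosen after their values were seen, as was Rxra. The gene pairs of the ratios within a library were not fixed in advance. Some genes of the other peroxisome list are not reported here by name. The exon overlaps, levels per kilobase, seed matches and promoter motifs were computed from GENCODE M21 and RefSeq tables of GRCm38, another build than that of the counts, and only promoter and microRNA coordinates of that build are printed. Biopython 1.88 and matplotlib 3.10.9 were used. The 18 alternatives were DESeq2 size factors, upper-quartile factors or library size alone in place of TMM, no filter, DESeq2 1.42.0 (an adjusted p of NA stayed NA), limma-voom with and without sample weights, a replicate block, thinning to equal nuclear counts, leaving out mitochondrial genes and leaving out each library.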

Additional observations from a re-analysis of the deposited data

Results flagged for a closer look

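For 29 genes whose value in each library was examined, the gap between the highest or lowest library and the next was compared with the range of its group of 4, and 13 of 58 groups had a gap above Dixon's critical value. Chance alone gives such a gap in about 1 of 20 independent groups. That rate does not hold here, since the 58 groups come from the same libraries and most genes were picked by smallest p. The 4 genes picked after their values were seen (Acaa1b, Ech1, Cat and Scp2) supply 4 of the 13. Wild-type replicate 4 accounted for 8 of the 13. It was the lowest wild-type library for Pex7 at 19.7 CPM, Pex2 at 28.7 CPM, Pex11a at 34.3 CPM, Nudt12 at 8.44 CPM, Cat at 499 CPM and Scp2 at 1122 CPM, and the highest for Hacl1 at 37.1 CPM and Slc27a2 at 942 CPM. Knockout replicate 1 was the lowest knockout library for Phyh at 1343 CPM, Ech1 at 389 CPM and Scp2 at 2209 CPM. Knockout replicate 3 was the lowest for Pex16 at 68.2 CPM and the highest for Pex2 at 38.6 CPM, in groups whose other values were within 1 CPM of each other.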

How the results depend on the processing

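Of the 20 called members, Ehhadh, Acaa1a, Ech1, Eci2 and Crot were called in all 18 alternatives, and 13 were called with each of the 8 libraries left out in turn. All 20 were called with DESeq2 size factors or upper-quartile factors in place of TMM, by DESeq2, by limma-voom with and without weights and without mitochondrial genes. Scaling by library size alone moved the median log2 fold change of all genes to 0.54 and gave 6 members higher and 0 lower (biogenesis 0 higher, matrix 0 lower, membrane 0 higher), 7 and 0 of the other peroxisome genes, and 561 and 124 of all genes. Higher calls were then 81.9% of all calls, against 49.3% with TMM. With sample weights in voom, all genes gave 2432 higher and 2552 lower, members 2 lower (matrix 2), and other peroxisome genes 8 lower. Thinned to equal nuclear counts, 257 of all genes were higher and 253 lower, with 9 members higher (biogenesis 1, membrane 1) and 4 of the other peroxisome genes higher and 0 lower. Deviations from the group mean had correlations of -0.193 to -0.0322 between libraries with the same number, and -0.122 to 0.188 between different numbers. These deviations sum to 0 within each group, so the correlations cannot decide whether the numbers mark pairs, and the labels do not say. With a replicate block, 643 of all genes were higher and 624 lower, 11 members were higher (biogenesis 2, membrane 2), and 2 of the other peroxisome genes were lower. With 1 library left out, higher and lower calls ran from 760 to 2446 and from 728 to 2407 over all genes, from 12 to 23 and from 1 to 4 over members, with 3 to 8 biogenesis genes higher, 1 to 4 matrix genes lower, 2 to 5 membrane genes higher and 2 to 9 of the other peroxisome genes lower, and the highest counts were those without wild-type replicate 4. Changes of sign were found only in members that were not called, apart from Abcd2, at -0.068 when thinned. Under library size, Pex10 was 0.49, Acaa1b 0.38, Hacl1 0.16, Nudt19 0.35, Far1 0.056, Cat 0.34, Agxt 0.32 and Pipox 0.43. Pex3 was -0.56 and Pex10 0.61 when thinned, and Pex10 was 0.0062 without a filter and from -0.12 to 0.085 without wild-type replicates 1 and 3. Scp2 was -0.10 with voom weights and from -0.15 to 0.18 without wild-type replicates 4 and 1. Agps was -0.016 with voom, -0.025 with weights, and from -0.048 (knockout replicate 2) to 0.072 (knockout replicate 4) with 1 library left out, with -0.013 without wild-type replicate 4. Cat was 0.098 with voom, 0.079 with the replicate block, and from -0.33 (wild-type replicate 4) to 0.069 (wild-type replicate 3) with 1 library left out. Agxt was 0.011 with voom and from -0.33 (wild-type replicate 4) to 0.041 (wild-type replicate 1). The cause of these shifts was not tested. The nuclear depth of wild-type replicate 4 limits the precision of members near 10 CPM or below, such as Abcd2 and Far1, which had no estimate after thinning. Hacl1 had 66 counts in that library, at 37.1 CPM its highest value of all 8.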
